A study of Mus musculus with 8 samples.

Results

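The genes described here are 9 components of Hedgehog reception and response, out of 56748 genes in the count table, of which 21508 had enough counts to be tested. They were listed by name: the co-receptors Gas1, Cdon and Boc, the transducer Smo with the transcription factors Gli2 and Gli3, and the targets Gli1, Ptch1 and Hhip. All 9 matched an identifier and passed the filter on low counts. They were measured in tdTomato-positive cells sorted from lower-jaw molars of mice at postnatal day 10, after tamoxifen at postnatal day 3. The genotype labels are Ctnnb1(+/-) for the 4 libraries called cHet and Ctnnb1(-/-) for the 4 called cKO. Ctnnb1 encodes beta-catenin, so every library carries at least 1 deleted copy by its label, and no wild-type group was analysed here. The labels call the cells CXCL12+ apical papilla cells, give the tissue as dental pulp, and name dental follicle cells in the extraction protocol. Nothing used here states the Cre driver, the deleted exons or whether each library is a separate animal. The p-values below are therefore set by the variation among 8 libraries, part or all of which may be technical.

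Hedgehog ligands are secreted proteins that bind Patched receptors. Without ligand, Ptch1 holds the membrane protein Smoothened (Smo) inactive, and Gli2 and Gli3 are held back or cut into repressor forms. When ligand binds with the help of the co-receptors Gas1, Cdon and Boc, Smo enters the primary cilium and Gli activators switch on target genes. Gli1, Ptch1 and Hhip are such targets: Gli1 adds to activation, while Ptch1 and Hhip bind ligand and limit the signal. In the growing tooth the epithelium is a known source of Sonic hedgehog, and Gli1 marks mesenchymal progenitor cells around the root.

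The cells carried the marker that names them, but the libraries also held transcripts of other tissues, in amounts that varied between libraries. Cxcl12 was present in every library, at 66.4 to 268 CPM (counts relative to library size, scaled with TMM factors) in cHet and 491 to 1000 CPM in cKO. The 14 general mesenchymal genes summed to 3640 to 12300 CPM in cHet and 14100 to 28300 CPM in cKO, and all 14 were detected. Of these, edgeR called 2 higher and 0 lower, beside 1.08% and 0.0558% of all tested genes. An unadjusted p under 0.05 was reached by 12, in either direction, beside 17.1%. DESeq2 called 9 higher and 1 lower (9.46% and 4.82% of its tested genes), and limma voom called 9 higher (5.96%). The 11 olfactory neuron genes summed to 7130 to 12800 CPM in cHet and 6170 to 7740 CPM in cKO. Neutrophil granule genes reached 18400 CPM in cHet12, against 23.7 to 1330 CPM in the other libraries. None of the 11 olfactory or the 5 tested neutrophil genes was called by edgeR, with 5 and 4 at an unadjusted p under 0.05. The library names are the column names, and their numbers are not replicate numbers. Whole-gene Ctnnb1 levels averaged 257 CPM (SD 40.2) over the cHet and 277 CPM (SD 39.2) over the cKO libraries, which cannot check the labels because the deleted exons are not named. In bulk samples, fewer cells of a type and less RNA per cell cannot be told apart.

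Gas1 and Gli3 rose in cKO, and 6 of the other 7 genes had higher means without passing the test. By edgeR's quasi-likelihood test with Benjamini-Hochberg adjustment, 2 of the 9 were called higher and 0 lower, beside 1.08% of all tested genes called higher and 0.0558% called lower. At an unadjusted p under 0.05 there were 7 of the 9, all higher, beside 17.1% of all tested genes in either direction. In 7 of the 9 every cKO library lay above every cHet library, beside 6.46% of all tested genes. The exceptions were Hhip and Cdon. The median log2 fold change of the 9 was 1.29, beside −0.03 for all tested genes. It was higher, at 1.56, for the 14 general mesenchymal genes, and at 1.68 for 14 dental papilla genes with Cxcl12 among them. The shift was therefore not particular to the Hedgehog genes. DESeq2 called 7 of the 9 higher (9.46% of its tested genes), leaving Cdon and Hhip, and limma voom called 6 (5.96%), leaving Gli1 as well. Leaving out 1 library, edgeR called 4 of the 9 higher without cKO9 (3.67% of its tested genes), 3 without cHet8 (0.698%) and 0 in each of the other 6 cases, where 6 or 7 of the 9 had an unadjusted p under 0.05, beside 11.4% to 15.6% of all tested genes. Those tallies come from the same libraries and give no independent support.

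Sequences just upstream of the transcription start are shown for Gas1 and Ptch1, the co-receptor and the target set side by side below. They are the 250 bases before the annotated start from RefSeq (GRCm38.p6), 5′ to 3′ on the gene's own strand, with CpG dinucleotides in capitals. The Gas1 window is chr13:60177536-60177785 and the Ptch1 window chr13:63565736-63565985, both on the minus strand.
Gas1: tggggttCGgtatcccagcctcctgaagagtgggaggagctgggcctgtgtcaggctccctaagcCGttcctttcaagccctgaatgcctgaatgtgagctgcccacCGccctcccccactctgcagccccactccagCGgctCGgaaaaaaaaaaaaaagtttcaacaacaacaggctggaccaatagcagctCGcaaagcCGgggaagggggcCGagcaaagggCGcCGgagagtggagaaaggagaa
Ptch1: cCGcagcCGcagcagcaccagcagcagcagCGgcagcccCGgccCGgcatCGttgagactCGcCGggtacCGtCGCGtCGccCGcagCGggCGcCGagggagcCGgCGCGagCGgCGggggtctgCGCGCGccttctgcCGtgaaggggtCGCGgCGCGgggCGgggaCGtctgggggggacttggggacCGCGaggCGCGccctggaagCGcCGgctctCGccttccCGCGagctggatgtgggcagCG
The Gas1 window held 10 CpG dinucleotides and the Ptch1 window 41, where the median of 32851 such windows was 6. Of the 9 genes, 7 had a window in the table (all but Boc and Gli1). None of the 7 held the GLI motif GACCACCCA on either strand, exactly or with 1 mismatch, and none held the TCF/LEF core ATCAAAG on either strand. The exact GLI motif was in 0.225% of all windows, the motif with up to 1 mismatch in 5.79%, and the TCF/LEF core in 3.21%. The absence says only that these letters are not in these windows.

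**Figure D1:**
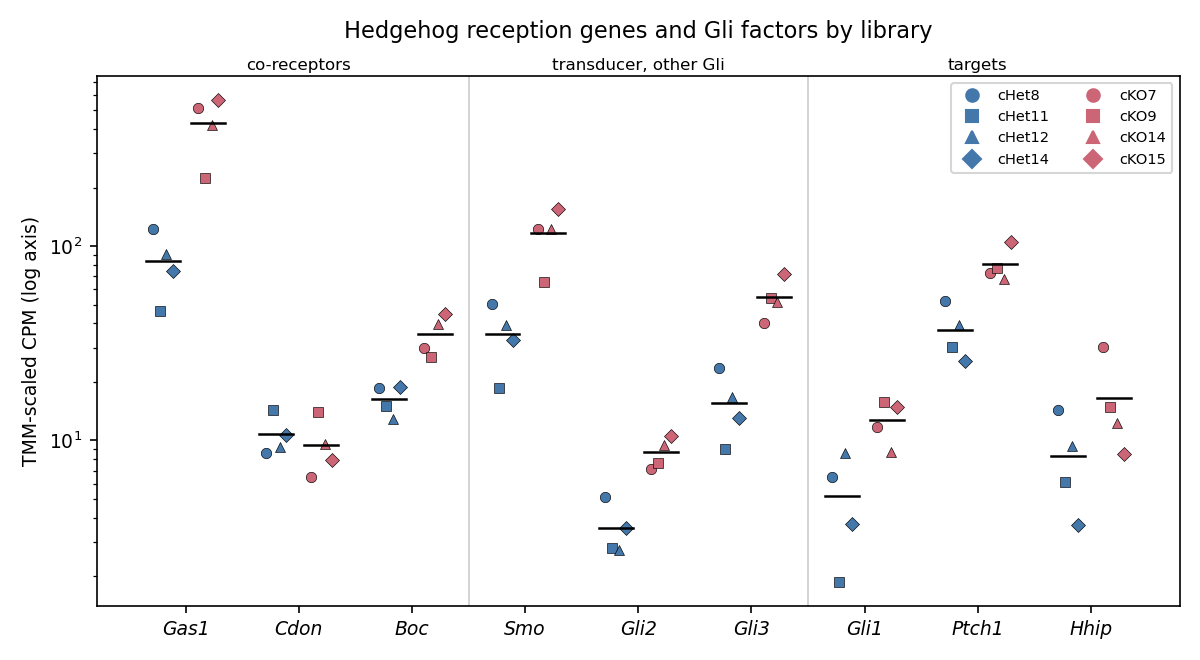
TMM-scaled CPM (log axis) of the 9 genes, 1 point per library with a symbol for each library, and bars at the arithmetic group means (n = 4 each). The cKO points lie above all cHet points for every gene except Cdon and Hhip.

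Gas1 (ENSMUSG00000052957.9), a membrane-anchored co-receptor that helps Hedgehog ligand bind Patched, had the largest change of the 9. Its levels were 123 CPM in cHet8, 46.2 in cHet11, 91.5 in cHet12 and 74.6 in cHet14, against 510 in cKO7, 224 in cKO9, 418 in cKO14 and 565 CPM in cKO15. The lowest cKO library, cKO9, stood above the highest cHet library, cHet8. The group means were 83.9 ± 32.2 and 429 ± 150 CPM (SD, n = 4 each), a 5.12-fold rise (log2 2.36, SE 0.37, edgeR adjusted p = 0.0376). The call ended without cHet11 (adjusted p = 0.0782), cHet12 (0.089), cHet14 (0.147), cKO7 (0.103), cKO14 (0.126) or cKO15 (0.12), although the log2 fold change stayed between 2.15 and 2.60 over all 8 omissions.

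Boc, an immunoglobulin-superfamily co-receptor, had a higher mean in cKO without passing. It stood at 18.7 CPM in cHet8, 15.1 in cHet11, 12.9 in cHet12 and 18.9 in cHet14, and at 30.0 in cKO7, 27.0 in cKO9, 39.7 in cKO14 and 44.7 CPM in cKO15. The groups did not overlap, and the spread was narrow in cHet. The means were 16.4 ± 2.91 and 35.4 ± 8.24 CPM (SD, n = 4 each), a ratio of 2.16 (log2 1.11, SE 0.21, edgeR adjusted p = 0.0539). DESeq2 and voom called it (adjusted p = 2.57e-05 and 0.014), as did edgeR without cKO9 (0.0278) or with a filter of 1 CPM in 4 libraries (0.0483).

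Cdon, the paralog of Boc, did not share this pattern. Its levels were 8.59 CPM in cHet8, 14.4 in cHet11, 9.26 in cHet12 and 10.7 in cHet14, against 6.51 in cKO7, 14.0 in cKO9, 9.54 in cKO14 and 7.93 CPM in cKO15. The highest values were in cHet11 and cKO9, and cKO7 and cKO15 lay below every cHet library, so the groups overlapped in part. The means were 10.8 ± 2.61 and 9.49 ± 3.23 CPM (SD, n = 4 each), a log2 difference of −0.18 (SE 0.30, edgeR adjusted p = 0.817). The co-receptors as a group therefore held 1 called gene, 1 gene with separate groups that missed the threshold, and 1 with overlapping groups. cHet11 and cKO9 also had the lowest mesenchyme score of their groups, 6.54 and 8.26 (mean log2 CPM of the 14 mesenchymal genes). With that score as covariate the log2 value of Cdon was 0.46, not called by edgeR. With libraries scaled to the mesenchymal genes it was −1.6 (edgeR adjusted p = 0.0691), where the median of all tested genes was −1.37. Whether mesenchyme content bears on the Cdon values was not tested.

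Smo, the Frizzled-like membrane protein that carries the signal into the cell, stood at 50.4 CPM in cHet8, 18.6 in cHet11, 39.3 in cHet12 and 32.7 in cHet14, against 123 in cKO7, 65.5 in cKO9, 123 in cKO14 and 156 CPM in cKO15. The groups did not overlap. The means were 35.3 ± 13.3 and 117 ± 37.8 CPM (SD, n = 4 each), a ratio of 3.32 (log2 1.73, SE 0.35, edgeR adjusted p = 0.0592). Without cKO9 edgeR called it (adjusted p = 0.0257), and DESeq2 and voom called it with all 8 libraries (1.16e-05 and 0.014).

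Gli3 (ENSMUSG00000021318.16), the factor that mainly gives the repressor form in limb and craniofacial mesenchyme, rose. It stood at 23.5 CPM in cHet8, 9.08 in cHet11, 16.7 in cHet12 and 13.0 in cHet14, and at 40.4 in cKO7, 54.2 in cKO9, 51.7 in cKO14 and 72.2 CPM in cKO15. Every cKO library was above every cHet library. The means were 15.6 ± 6.15 and 54.6 ± 13.2 CPM (SD, n = 4 each), a 3.50-fold rise (log2 1.81, SE 0.31, edgeR adjusted p = 0.0405). The call ended without cHet11 (adjusted p = 0.0811), cHet12 (0.093), cHet14 (0.149), cKO7 (0.102), cKO14 (0.136) or cKO15 (0.139), with the log2 value between 1.62 and 2.08 over the 8 omissions.

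Gli2, the main activator among the Gli factors, was the lowest of the 3 in CPM per kilobase of exon. It stood at 5.13 CPM in cHet8, 2.81 in cHet11, 2.72 in cHet12 and 3.56 in cHet14, against 7.16 in cKO7, 7.68 in cKO9, 9.49 in cKO14 and 10.5 CPM in cKO15. The groups did not overlap, and the means of 3.55 ± 1.11 and 8.70 ± 1.56 CPM (SD, n = 4 each) differed by a log2 value of 1.29 (SE 0.30, edgeR adjusted p = 0.0814). DESeq2 and voom called it (adjusted p = 0.00021 and 0.0165). The ratio of Gli3 to Gli2 CPM was 3.24 to 6.15 in cHet and 5.44 to 7.06 in cKO, so the groups overlapped in this ratio.

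Among the targets, none was called by edgeR, and 2 of the 3 had an unadjusted p under 0.05, beside the 17.1% of all tested genes. Gli1, the target most used as a readout of the pathway, stood at 6.49 CPM in cHet8, 1.88 in cHet11, 8.62 in cHet12 and 3.71 in cHet14, against 11.7 in cKO7, 15.8 in cKO9, 8.69 in cKO14 and 14.9 CPM in cKO15. The groups were barely separate: cKO14 exceeded cHet12 by less than the spread within either group. The means were 5.18 ± 2.98 and 12.8 ± 3.25 CPM (SD, n = 4 each, log2 1.30, SE 0.46, edgeR adjusted p = 0.209). DESeq2 called it (adjusted p = 0.0375) and voom did not.

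Ptch1, the receptor and feedback inhibitor, stood at 52.0 CPM in cHet8, 30.3 in cHet11, 39.4 in cHet12 and 25.5 in cHet14, and at 72.9 in cKO7, 77.3 in cKO9, 68.0 in cKO14 and 105 CPM in cKO15. The groups did not overlap. The means were 36.8 ± 11.7 and 80.8 ± 16.6 CPM (SD, n = 4 each), a ratio of 2.20 (log2 1.14, SE 0.24, edgeR adjusted p = 0.0697). It passed without cHet8 (adjusted p = 0.0488), and by DESeq2 and voom with all libraries (0.000192 and 0.0228).

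Hhip, a membrane-bound decoy that binds the ligands, varied widely within groups: its SD was 55% of the mean in cHet and 57.6% in cKO, the highest of the 9 in cKO, while Gli1 had the highest in cHet. It stood at 14.3 CPM in cHet8, 6.14 in cHet11, 9.32 in cHet12 and 3.67 in cHet14, against 30.1 in cKO7, 14.9 in cKO9, 12.3 in cKO14 and 8.56 CPM in cKO15. Only cKO7 and cKO9 lay above the highest cHet library. The means were 8.37 ± 4.60 and 16.5 ± 9.48 CPM (SD, n = 4 each), a log2 difference of 0.98 (SE 0.51, edgeR adjusted p = 0.372), which fell to 0.49 without cKO7 and was not called by DESeq2 (0.189) or voom.

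Levels were compared between genes per kilobase of exon, with all annotated exons of a gene counted. The transcripts expressed may be shorter, and neither their length nor the coverage along them was examined. In cHet the order of mean CPM per kilobase was Gas1 (28.3 ± 10.9), Smo (6.27 ± 2.36), Boc (3.68 ± 0.654), Ptch1 (2.59 ± 0.823), Gli3 (1.63 ± 0.641), Cdon (1.39 ± 0.338), Gli1 (1.04 ± 0.597), Hhip (0.922 ± 0.507) and Gli2 (0.517 ± 0.162), as SD with n = 4. In cKO, Gas1 stood at 145 ± 50.5, Smo at 20.8 ± 6.72, Boc at 7.94 ± 1.85, Ptch1 at 5.70 ± 1.17 and Gli3 at 5.69 ± 1.38. Below these came Gli1 at 2.56 ± 0.651, Hhip at 1.81 ± 1.04, Gli2 at 1.27 ± 0.227 and Cdon at 1.23 ± 0.419 CPM per kilobase (SD, n = 4). Gas1 led in both groups, followed by Smo, each by more than the larger SD of the neighbours compared. Neighbours from Gli3 down to Gli2 in cHet differed by less than that SD, as did Ptch1 and Gli3, and those from Gli1 down to Cdon, in cKO. Cdon stood above Gli1, Hhip and Gli2 in cHet and below all others in cKO. Its distance to Gli2 in cHet and to Gli1 in cKO exceeded the larger SD of the pair, while those to Gli1 and Hhip in cHet and to Hhip and Gli2 in cKO did not.

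Set against each other as groups, co-receptors and targets kept overlapping ratios in cHet and cKO. The mean log2 CPM of the 3 co-receptors minus that of the 3 targets was 0.68 in cHet8, 1.60 in cHet11, 0.59 in cHet12 and 1.81 in cHet14, against 0.65 in cKO7, 0.74 in cKO9, 1.48 in cKO14 and 1.30 in cKO15. The group means were 1.17 ± 0.625 and 1.04 ± 0.41 (SD, n = 4 each), and the range in cKO overlapped that in cHet. This measure does not depend on how libraries are scaled. The co-receptors, however, did not move as a block, and a single pair gave another picture. The ratio of Gas1 to Ptch1 CPM was 2.37 in cHet8, 1.53 in cHet11, 2.32 in cHet12 and 2.93 in cHet14, against 6.99 in cKO7, 2.90 in cKO9, 6.15 in cKO14 and 5.38 in cKO15. In 3 of 4 cKO libraries it lay above every cHet library, and cKO9 was just below cHet14. These ratios were chosen with the members' values known and are given without a test.

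The members were also set against the mesenchymal genes within each library. Of those 14 genes, 12 had higher means in cKO and 2 were called higher, Prrx1, a mesenchymal homeobox gene, and Fbn1, which encodes fibrillin. Lum and Dcn, small proteoglycans of connective tissue, had lower means. The mesenchyme score averaged 7.56 (SD 0.752) over the 4 cHet and 8.82 (SD 0.442) over the 4 cKO libraries, and cKO9 (8.26) lay just below cHet8 (8.29). In cHet its order, from cHet8 through cHet12 and cHet14 to cHet11, was also the order of Gas1, Smo and Gli3 CPM. In cKO, from cKO15 through cKO14 and cKO7 to cKO9, it was not the order of Gas1 or Gli3, and Smo was nearly equal in cKO14 and cKO7. Log2 CPM minus this score was −1.26 ± 0.172 in cHet and −0.158 ± 0.301 in cKO for Gas1, and −2.51 ± 0.145 and −2.02 ± 0.181 for Smo (SD, n = 4 each), with no overlap for either. That was 2 of the 9 genes, beside 1.13% of all tested genes that were separate and higher on this scale. Gli3 stood at −3.68 ± 0.226 and −3.08 ± 0.401, with cKO7 below the highest cHet library. The targets overlapped on this scale: Gli1 differed by 0.22 between groups, Ptch1 by −0.09 and Hhip by −0.27, and of the others Boc differed by −0.16 and Gli2 by 0.06. Cdon had the lowest difference, −1.46, with overlapping groups, and none of the 9 was separate and lower, beside 27.7% of all tested genes. The mesenchyme score is not neutral, since edgeR called 2 of its own genes and gave 12 an unadjusted p under 0.05. A dental papilla score, from 14 papilla genes with Cxcl12 among them, differed more between genotypes, by 1.56 against 1.26. It averaged 5.08 for cHet and 6.64 for cKO, without overlap, and 13 of its genes had higher means and 1 lower. Over the 8 libraries its correlation was 0.98 with Gas1 and 0.99 with Smo, against 0.94 and 0.97 for the mesenchyme score. Whether Gas1 and Smo rose beyond the papilla genes was not tested.

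**Figure D2:**
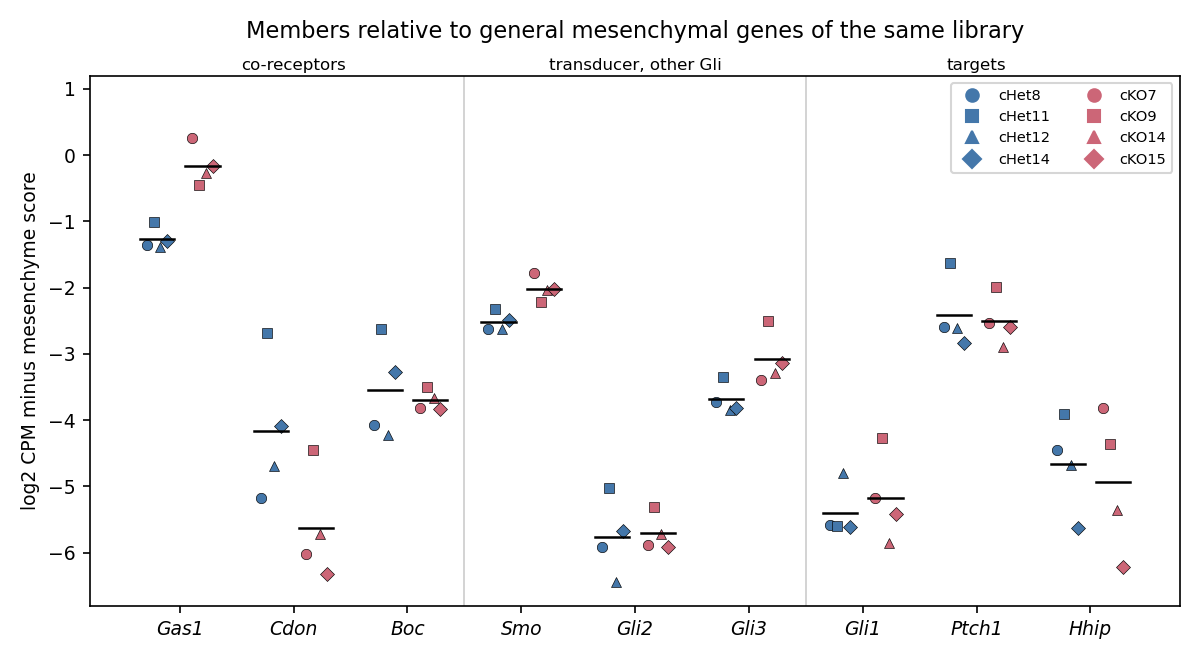
Log2 CPM of each gene minus the mesenchyme score of the same library, 1 point per library, with bars at group means (n = 4 each). Gas1 and Smo have separate groups, Gli3 nearly so, and Gli1, Ptch1 and Hhip overlap.

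In edgeR fits that took the marker composition of the libraries into account, 0 of the 9 were called. An unadjusted p under 0.05 was reached by 4 of them with the mesenchyme covariate (6.52% of all tested genes) and 6 with the olfactory covariate (6.17%), all higher. With mesenchyme scaling there were 2, Gas1 higher and Cdon lower, beside 55% of all tested genes. No other tool was run with these settings. Both scores differed between the genotypes, with means of 7.56 in cHet and 8.82 in cKO for mesenchyme and 8.84 and 8.43 for olfactory neurons. Composition and genotype therefore cannot be told apart in these fits. With the mesenchyme score as covariate the log2 value was 1.29 for Gas1 (adjusted p = 0.332) and 1.07 for Gli3 (0.474), and all 9 genes were positive. With the olfactory score as covariate they were 1.75 and 1.28 (both adjusted p = 0.52). With libraries scaled to the mesenchymal genes, the median of all tested genes was −1.37, Gas1 stood at 1.12 (adjusted p = 0.0509) and Gli3 at 0.64 (0.165), and Ptch1, Hhip and Boc turned to small negative values. Few genes of any kind were called in these fits, 0.0325%, 0.00465% and 0.0139% of those tested as higher in the 3 fits in that order.

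**Figure D3:**
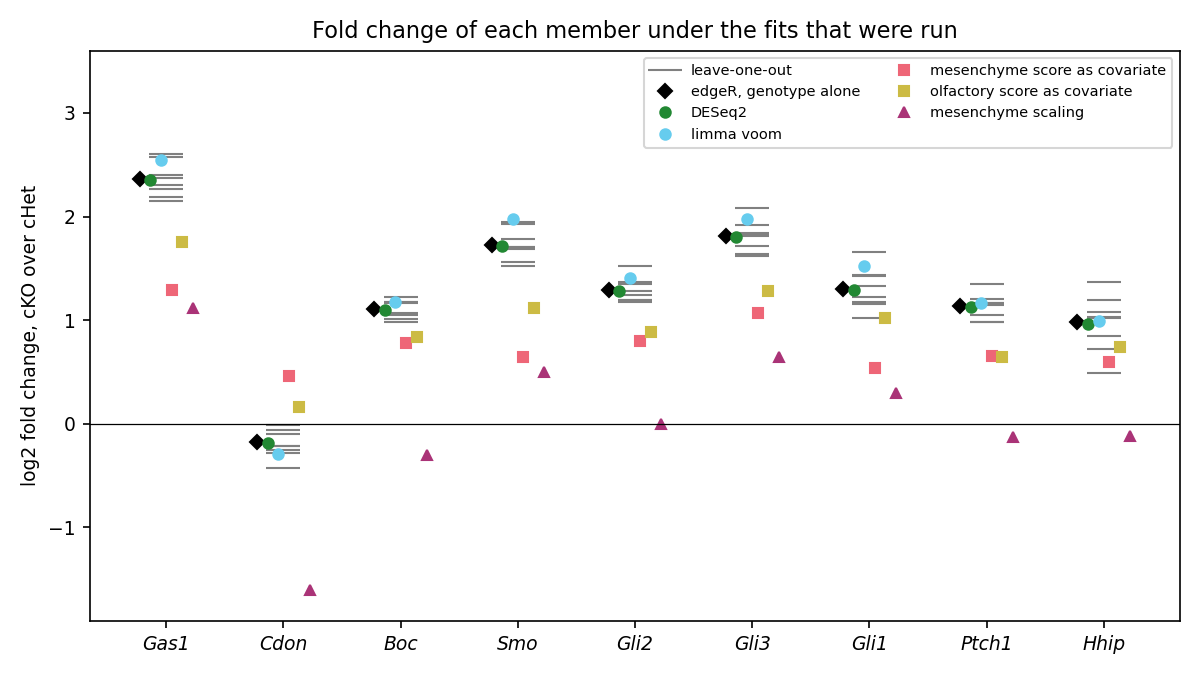
Log2 fold change (cKO over cHet) of each gene in the edgeR fit with genotype alone, in DESeq2 and voom, with each covariate, with mesenchyme scaling, and with each library left out (grey dashes). Gas1 is highest in every fit shown and Cdon lowest. Mesenchyme scaling puts Boc, Ptch1 and Hhip just below 0, where the median of all tested genes is −1.37.

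The ligands of the pathway were present at low levels that varied between libraries. Sonic hedgehog (Shh) lay between 0.54 and 2.11 CPM in cHet. In cKO it was 3.12 CPM in cKO7, 0.118 in cKO15 and 0.0434 in cKO14, with no count in cKO9. Only cKO7 was above the lowest cHet library. Indian hedgehog (Ihh) was between 0.297 and 8.70 CPM in cHet and between 0 and 2.43 CPM in cKO, and Desert hedgehog (Dhh) between 0.436 and 2.83 and between 0.369 and 3.77 CPM. The groups overlapped for all 3. None of the 8 tested genes for ligands and their release was called by edgeR, 2 had an unadjusted p under 0.05 (17.1% of all tested genes), and DESeq2 and voom each called 2 higher (9.46% and 5.96%). Scube3, a secreted protein of the family that carries ligand away from its source, stood at 12.6 ± 6.40 and 35.4 ± 9.60 CPM (SD, n = 4 each, log2 1.49, edgeR adjusted p = 0.112), with separate groups. Hhat, which attaches palmitate to the ligands, stood at 5.49 and 16.6 CPM (log2 1.60, adjusted p = 0.118, and 0.029 without cKO9). Scube1 had a log2 value of 0.89 (adjusted p = 0.438). It was −0.12 with mesenchyme scaling, where the median of all tested genes was −1.37, and −0.55 with the mesenchyme covariate.

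Genes acting on Smo and on Gli processing split between a few with separate groups and a majority near 0. Of 10 genes that act on reception and Smo, none was called by edgeR and 4 had an unadjusted p under 0.05, beside 17.1% of all tested genes. DESeq2 called 4 and voom 3 higher, beside 9.46% and 5.96%, and 4 had separate groups with cKO higher, beside 6.46%. Evc2 and Evc, partners that hold active Smo in a zone of the cilium, had the smallest p-values of the list. Evc2 stood at 14.1 ± 5.75 and 46.8 ± 11.3 CPM (log2 1.73, edgeR adjusted p = 0.0579) and Evc at 12.6 ± 5.43 and 33.2 ± 12.0 CPM (log2 1.40, adjusted p = 0.144, SD with n = 4 each). Without cKO9, 1 gene of this list was called, Evc2 (adjusted p = 0.0327). Gpr161, a ciliary receptor that restrains the pathway, stood at 3.02 ± 1.91 and 9.30 ± 3.88 CPM (SD, n = 4 each, log2 1.62, edgeR adjusted p = 0.194), with separate groups. Mgrn1, a ubiquitin ligase that lowers Smo at the surface, had a log2 value of 0.38 (adjusted p = 0.157), which was negative with mesenchyme scaling. In 14 genes of Gli processing the median log2 value was 0.01, none was called by edgeR, and 4 had an unadjusted p under 0.05, beside the same 17.1%. DESeq2 and voom each called 4 higher, beside 9.46% and 5.96%, and 4 had separate groups with cKO higher, beside 6.46%. Those with the smallest p were Dzip1, a ciliary-base protein needed for Hedgehog signalling (log2 1.71, adjusted p = 0.0573), Btrc, the ubiquitin-ligase subunit that directs Gli processing (log2 0.60, 0.0862, negative with mesenchyme scaling), and the ciliary kinesin Kif7 (log2 1.73, 0.115). edgeR called Dzip1 without cHet8 or cKO9 and Btrc without cKO9. With a filter of 1 CPM in 4 libraries, edgeR called Dzip1 and Evc2 (adjusted p = 0.0483 each).

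The machinery of the primary cilium, which Smo and Gli need, gave mostly small negative values. Of 16 genes tested, 14 had negative and 2 positive log2 values, beside 52.5% negative among all tested genes, with a median of −0.19 and none called by edgeR. At an unadjusted p under 0.05 there was 1 (17.1% of all tested genes), and 2, Arl13b and the ciliary motor gene Kif3a, had separate groups with cKO lower (3.68%). DESeq2 called 1 lower (4.82% of its tested genes were called lower), and voom called none. Arl13b, a ciliary membrane GTPase, stood at 88.9 ± 5.50 and 76.7 ± 3.50 CPM (SD, n = 4 each, log2 −0.21, edgeR adjusted p = 0.277). Cep290, a gatekeeper at the ciliary base, had a log2 value of −0.34 (adjusted p = 0.295) and Ift80, a transport protein, of −0.30 (0.328). Olfactory neurons are ciliated cells, and all 11 of their genes had negative log2 values with none called. With the olfactory score as covariate the log2 values were −0.17 for Arl13b, −0.06 for Cep290 and −0.01 for Ift80 (edgeR adjusted p = 0.938, 0.996 and 0.999). With the mesenchyme score as covariate they were −0.19, −0.07 and −0.01. The olfactory score itself averaged 8.84 in cHet and 8.43 in cKO, so it is tied to genotype in these libraries. Whether olfactory cells bear on the cilium values was not tested.

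Beyond Gli1, Ptch1 and Hhip, 2 of 11 tested genes known as Hedgehog targets in various tissues rose and 0 fell by edgeR, beside the 1.08% of all genes called higher. Both encode forkhead factors of mesenchyme. Foxc2 stood at 7.07 CPM in cHet8, 2.94 in cHet11, 3.93 in cHet12 and 7.26 in cHet14, against 33.5 in cKO7, 16.9 in cKO9, 35.1 in cKO14 and 36.9 CPM in cKO15 (log2 2.53, SE 0.38, edgeR adjusted p = 0.0376). Foxl1 was scarce, at 0.171 to 0.475 CPM in cHet and 1.57 to 1.81 CPM in cKO (log2 2.67, SE 0.45, adjusted p = 0.0399), and its call ended without a filter (0.0657). The groups did not overlap for either gene. Leaving out 1 library ended the Foxc2 call without cHet11 (adjusted p = 0.0782), cHet12 (0.0884), cHet14 (0.131), cKO7 (0.102), cKO14 (0.126) or cKO15 (0.12). The Foxl1 call ended in the same 6 cases (0.107, 0.101, 0.112, 0.11, 0.136 and 0.136) and also without cHet8 (0.0754). Both calls ended as well with the mesenchyme covariate (Foxc2 1.63, adjusted p = 0.541, and Foxl1 2.52, 0.563) and the olfactory covariate (2.23, 0.529, and 3.10, 0.52). With mesenchyme scaling the log2 values were 1.25 (0.0546) and 1.38 (0.133). Ccnd2, a cyclin of the G1 phase, stood at 109 ± 55.0 and 272 ± 93.0 CPM (SD, n = 4 each, log2 1.32, edgeR adjusted p = 0.179). At an unadjusted p under 0.05 there were 8 of the 11, in either direction (17.1% of all tested genes). Among these, Mycn (log2 −0.97) and Hsd11b2 (−1.68) had lower means in cKO, and the rest had higher means. DESeq2 called 4 higher and 1 lower (9.46% and 4.82%), and voom 3 higher (5.96%). These lists share genes with many pathways.

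**Figure D4:**
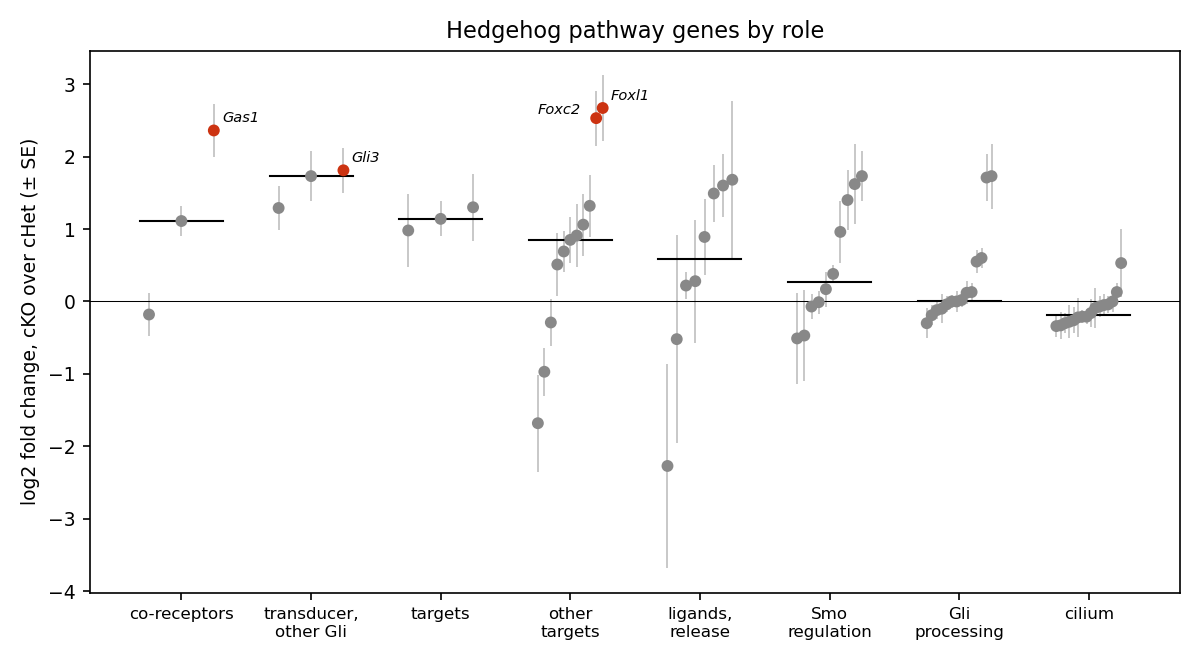
Log2 fold change (cKO over cHet) of each tested Hedgehog pathway gene by role, with bars of ± 1 approximate SE and a line at each list's median. Red points are genes called higher by edgeR (Gas1, Gli3, Foxc2 and Foxl1), and the cilium list lies close to 0.

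The genes most like the members across the 8 libraries were found by Pearson correlation of log2 CPM among 12492 other genes. For Gas1 they were Tgfb3, Tmem100 and Lamb2 (r = 0.998 each), and for Gli3 they were Lrp1 (0.996), Fbn1 (0.996) and Vcan (0.995). All 6 were called higher in cKO by edgeR, with log2 values between 1.84 and 3.35. The closest to Gli1 were C1qtnf6 (r = 0.987), Arhgef40 (0.985) and Scube3 (0.981), and the closest to Ptch1 were Prdm11 (0.989), Nlgn1 (0.984) and Lama2 (0.984). None of these 6 was called. The libraries share their genotype groups and their composition, which both enter these values, so they are given as a description.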

How the data were processed

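Transcripts were measured by bulk RNA sequencing of low-input cDNA in 8 libraries, 4 labelled cHet and 4 labelled cKO. The authors deposited raw integer counts for each Ensembl gene, with no normalisation, and they summed to between 44444033 and 50051392 per library. Trim Galore, STAR and the builds GRCm39 and mm39 are named in the submitters' processing notes, while the counter, annotation and versions were not given in the sources used here. Ensembl identifiers were matched to symbols without their version suffix (52073 of 56748), and the identifier with the largest total stood for a symbol. The columns carry group names and numbers that match no sample title, so each was assigned to its group only. Correlations of log2 CPM between libraries of a group lay between 0.882 and 0.942, so no pair was treated as 1 library.

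All 21508 genes that passed the default expression filter were fitted in R 4.3.3 with edgeR 4.0.16 (TMM factors, quasi-likelihood F test, genotype as the sole term, two-sided), and p-values were adjusted by Benjamini-Hochberg over all of them, with 0.05 as the threshold. Standard errors were approximated from the log2 fold change and its F statistic. CPM are TMM-scaled, and log2 CPM use a prior count of 2. Alternatives were DESeq2 1.42.0, limma 3.58.1 voom with quality weights, RLE factors, other filters, a mesenchyme or olfactory marker score as covariate, scaling to mesenchymal genes, and omission of each library. The fit was tested on simulated counts for 21508 genes, of which 20511 passed the filter. It recovered 61% of the 4-fold and 88% of the 16-fold changes among 100 genes each, and 10 of 159 calls were false. The simulated counts were drawn independently for each gene, with as many changes up as down and none in the scarcest genes. They held no differences in tissue composition between libraries, unlike the real counts. These rates therefore need not hold for the real libraries. The members and lists were chosen with earlier results of these data known. Besides the members, the genes named are those called in each Hedgehog list, the 3 with the smallest p per list, and the 3 most correlated with Gas1, Gli3, Gli1 and Ptch1 among those with a mean of at least 5 CPM. Shh, Ihh, Dhh, Gpr161, Kif3a, Mycn, Hsd11b2, Lum, Dcn, Prrx1 and Fbn1 (the last as a mesenchymal gene) were named after their values were seen. Exonic lengths are from GENCODE M21 on GRCm38, another build than the counts.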

Additional observations from a re-analysis of the deposited data

How the results depend on the processing

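The count of Hedgehog genes called higher (2 of 9) was 7 by DESeq2 and 6 by voom, and 0 with the mesenchyme score or the olfactory score as covariate and 0 with mesenchyme scaling. It lay between 0 and 4 over the 8 omissions of 1 library, with 0 without cHet11, cHet12, cHet14, cKO7, cKO14 or cKO15, 3 without cHet8 and 4 without cKO9. It was 2 with RLE factors or no filter and 3 with a filter of 1 CPM in 4 libraries, and 0 of the 9 were called lower under each of the 16 alternatives. Over all tested genes, 232 were higher and 12 lower. These counts were 1709 and 871 by DESeq2, 1281 and 271 by voom, 3 and 2 with mesenchyme scaling, 7 and 3 with the mesenchyme covariate, 1 and 0 with the olfactory covariate, and 216 and 5 without a filter. Over the omissions they ranged from 0 to 816 higher and from 0 to 144 lower, highest without cKO9, and at an unadjusted p under 0.05 there were between 2562 and 5049 genes, against 3681 with all libraries. The cause of these shifts was not tested. The sign turned with mesenchyme scaling for Boc (−0.30), Ptch1 (−0.13), Hhip (−0.12), Btrc (−0.80), Scube1 (−0.12) and Mgrn1 (−0.95). That scaling put the median of all tested genes at −1.37. A negative value there means a lower log2 change than that of the mesenchymal genes used for scaling. Boc, Ptch1 and Hhip stayed 1.08, 1.24 and 1.26 above that median. The sign also turned with the mesenchyme covariate for Cdon (0.46) and Scube1 (−0.55), and with the olfactory covariate for Cdon (0.16). The log2 ratio of co-receptors to targets (−0.13, cKO minus cHet) lay between −0.32 and 0.09 over the omissions, less than 1 SD from that value, and was −0.13 with a prior count of 0.5. No paired analysis was possible because the columns of the table do not carry the replicate numbers of the sample titles.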
